A study of Mus musculus with 3 samples.

Results

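The ADAM and ADAMTS genes, with the ADAMTS-like (ADAMTSL) genes, were read in 3 messenger RNA libraries of 4T1, a carcinoma line established from the mouse mammary gland. The cells over-expressed WISP2, a matricellular CCN protein that cells secrete. Members were chosen by symbol alone: Adam, Adamts or Adamtsl followed by a number, with a closing letter allowed for Adam. The rule found 56 of the 34591 symbols in the table, namely 32 ADAM, 19 ADAMTS and 5 ADAMTSL genes.

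All 3 libraries belonged to 1 group with the WISP2 over-expression genotype. Per the labels' protocols, the tumour cells received packaged vector and were then selected with puromycin, but those protocols speak of Wisp1 constructs, with no account of the WISP2 vector. The design text sets these cells against 4T1 cells carrying an empty vector, which were not analysed here, so the values describe the over-expressing cells and give no effect of WISP2. Whether separate cultures were used is not given in the sources used here, so each SD covers the spread between these samples, which may be technical. The libraries, named C1, C2 and C3 with no order, held 17630755, 67028365 and 47577315 counts. All 5 epithelial markers were above 1 CPM (counts scaled to the library total) in every library. They ranged from Epcam at 90.9 ± 9.83 CPM to Krt8 at 1077 ± 80.8 CPM (SD, n = 3). The cells thus carried these epithelial genes, which by themselves do not identify the line as 4T1.

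ADAMs are proteins of the cell surface with a disintegrin domain, and many of them cut the outer part of other membrane proteins free, a process called shedding. ADAMTS proteinases are secreted, carry thrombospondin repeats and act on proteoglycans, collagen precursors and other matrix proteins. ADAMTS-like proteins share the thrombospondin repeats but have no proteinase domain. In mammary carcinoma, shedding of growth factors, Notch receptors and E-cadherin has been attributed to ADAM10 and ADAM17.

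Catalytic ADAM and ADAMTS proteins bind their zinc ion through 3 histidines in a short motif, His-Glu-x-x-His-x-x-Gly-x-x-His, where x is any amino acid. The coding sequences of GENCODE M21 transcripts (build GRCm38, the longest coding sequence of each gene) were searched in frame for the codons of this motif and of a form with another amino acid in place of the glycine. The site is shown for the 15 members that were both detected and carried it, so that the codon at the glycine place can be compared, and for Adamts2 and Adamts3, the undetected relatives of Adamts14. Each is the coding strand, 5′ to 3′, 33 bases long; capitals mark the 3 histidine codons and the codon at the glycine place.
Adam10: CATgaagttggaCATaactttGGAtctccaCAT
Adam17: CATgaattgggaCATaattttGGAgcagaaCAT
Adam9: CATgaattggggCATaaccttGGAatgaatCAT
Adam12: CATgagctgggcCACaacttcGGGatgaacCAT
Adam19: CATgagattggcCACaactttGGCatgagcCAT
Adam8: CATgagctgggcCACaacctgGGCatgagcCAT
Adam15: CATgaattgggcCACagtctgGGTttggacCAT
Adamts1: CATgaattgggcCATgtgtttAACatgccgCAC
Adamts4: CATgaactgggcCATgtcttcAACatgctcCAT
Adamts8: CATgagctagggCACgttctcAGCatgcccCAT
Adamts5: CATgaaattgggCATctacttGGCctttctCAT
Adamts14: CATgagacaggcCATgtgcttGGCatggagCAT
Adamts2: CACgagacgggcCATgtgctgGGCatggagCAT
Adamts3: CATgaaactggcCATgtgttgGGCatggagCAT
Adamts6: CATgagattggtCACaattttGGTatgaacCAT
Adamts10: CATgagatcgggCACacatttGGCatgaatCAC
Adamts7: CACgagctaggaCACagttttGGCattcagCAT
Every ADAM site shown has a glycine codon at the marked place, whereas Adamts1 and Adamts4 have AAC and Adamts8 has AGC there.

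Over all 56 members, 38 carried the site in either form and 18 did not. The glycine form was found in 19 of 32 ADAM and 13 of 19 ADAMTS genes. The form without glycine was found in no ADAM gene and in the remaining 6 ADAMTS genes, Adamts1, Adamts4, Adamts8, Adamts9, Adamts15 and Adamts20. Neither form was found in the 5 ADAMTSL genes or in the other 13 ADAM genes. Among all 20966 coding sequences searched, 69 (0.329%) held the glycine form, 26 held the form without glycine, and either form was present in 0.453%. A match is a description of these letters, and a sequence without a match says only that these letters are not in the transcript used.

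The position of the site in the gene differed between the classes. In all 18 ADAMTS genes whose site was placed on exons, the 33 bases ran across an exon border, against 1 of 19 ADAM genes, which was Adam10. Among these ADAM genes, the transcripts of Adam1a, Adam1b and Adam30 have 1 exon, so no border could be crossed there. Those of Adam21, Adam24, Adam25, Adam26a, Adam26b and Adam39 have 2. In Adam10 (chromosome 9) the site took bases 1150 to 1182 of the coding sequence, across exons 9 and 10 of 16. In Adam17 (chromosome 12) it took bases 1270 to 1302, within exon 12 of 20. In Adamts1 (chromosome 16) it took bases 1204 to 1236, across exons 3 and 4 of 9. The Adam10 and Adam17 sites shared 26 of 33 bases, those of Adam12 and Adam19 shared 28, and those of Adamts1 and Adamts4 shared 27.

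Detection was taken as 1 CPM or more in every library, read as CPM. Of the members, 19 were detected, 18 had counts but fell short in at least 1 library, and 19 had 0 counts in all libraries. Over all 56 members the detected share was 33.9%, near the 33.8% of all symbols in the table. By class it was 8 of 32 ADAM genes (25.0%), 8 of 19 ADAMTS genes (42.1%) and 3 of 5 ADAMTSL genes (60.0%). Whether the classes differ in this share was not tested. At 0 in every library were 13 ADAM, 5 ADAMTS and 1 ADAMTSL genes, against 45.7% of all symbols. Among symbols with at least 1 count, 62.2% were detected.

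By summed level the order was the reverse of that by detected share. The ADAM class summed to 663.0 (C1), 686.4 (C2) and 676.3 CPM (C3), the ADAMTS class to 254.2, 241.0 and 310.5 CPM, and the ADAMTSL class to 19.5, 21.3 and 23.4 CPM. The class ranges did not overlap, and C3 was the highest library for ADAMTS and ADAMTSL but not for ADAM. Within libraries, the ADAM sum exceeded the ADAMTS sum by 1.34 ± 0.20 on the log2 scale (2.53-fold; SD, n = 3). The ADAMTSL sum lay below the ADAMTS sum by a log2 difference of -3.64 ± 0.13. Levels of different genes were compared per exon length, as TPM (reads per exon base, scaled to the library), and on that scale the sums were 365.4 ± 10.7 TPM for ADAM, 147.1 ± 20.6 TPM for ADAMTS and 11.6 ± 0.996 TPM for ADAMTSL. The log2 ratios per length were 1.32 and -3.66, close to those in reads.

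Per length, detected ADAM genes had a median level near that of all detected genes, and detected ADAMTS and ADAMTSL genes a lower one. The median over the detected members was 29.5 TPM for ADAM, 2.67 TPM for ADAMTS and 3.67 TPM for ADAMTSL, against 24.6 TPM over all detected genes. In reads the ADAM median was higher than that of all detected genes, at 66.6 CPM against 35.9 CPM. The ADAMTS (7.26 CPM) and ADAMTSL (7.12 CPM) medians were again lower. Adamts1 was the exception in its class, since it took 76.7% ± 0.49 of the ADAMTS reads and 78.0% ± 0.49 of the class level per length. In the ADAM class no gene held such a share: Adam10 took 24.2% ± 1.47 of the reads, Adam9 23.2% ± 1.18 and Adam17 18.2% ± 0.04.

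**Figure D1:**
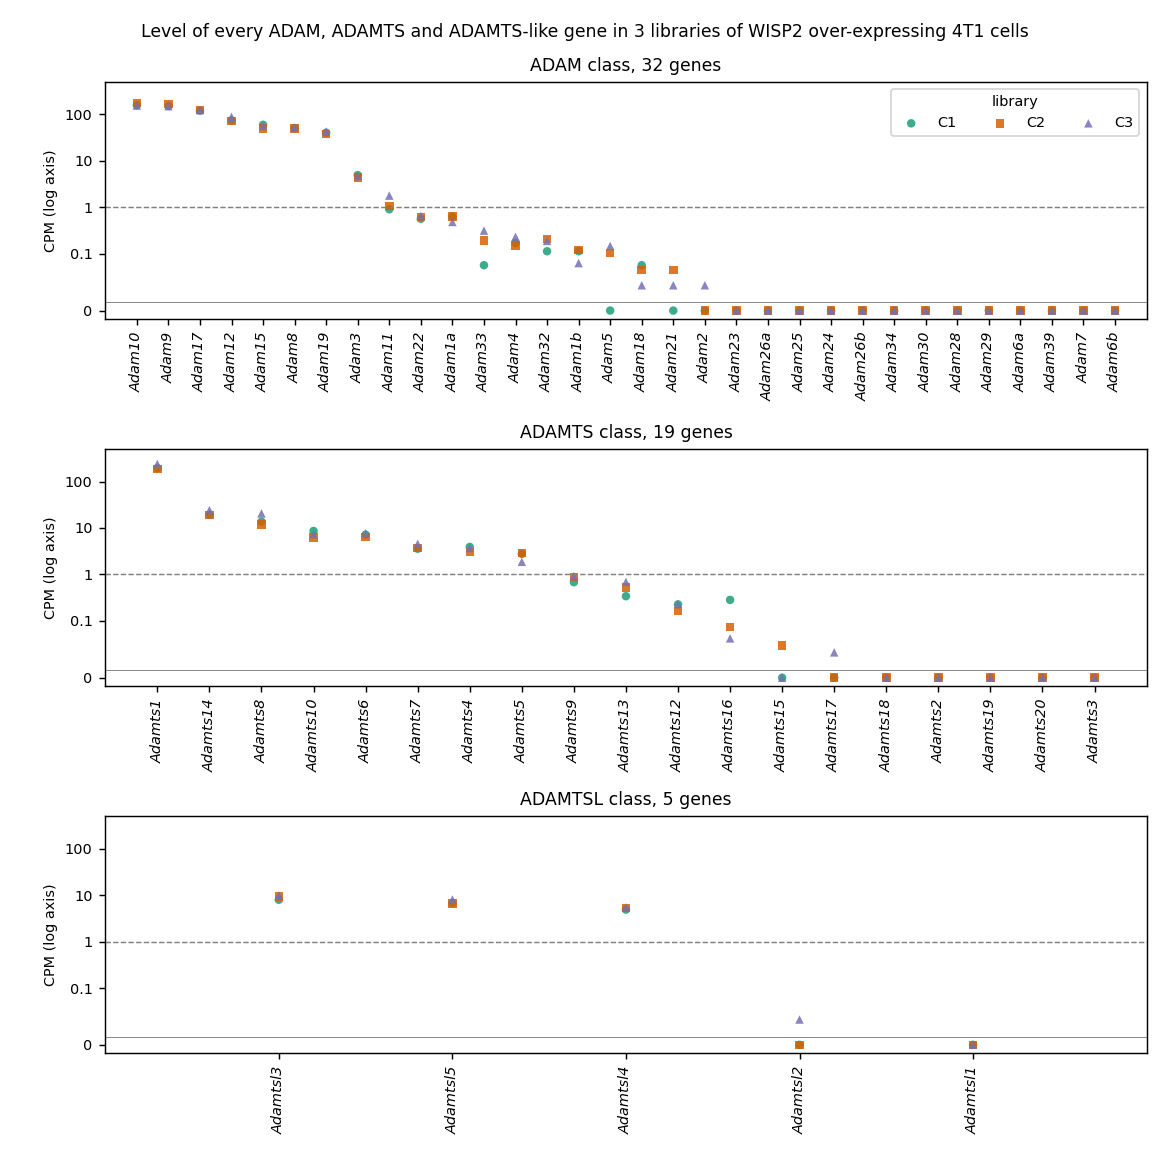
CPM (log axis, with 0 placed at the bottom) of each of the 56 members, in panels for ADAM, ADAMTS and ADAMTSL; the points are the 3 libraries and the dashed line is 1 CPM. The ADAM class separates into 7 genes near or above 40 CPM, Adam3 near 5 CPM and a tail below 2 CPM, whereas Adamts1 stands alone at the top of the ADAMTS class.

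The sheddases of the ADAM class were led by Adam10 and Adam9. Adam10, which cuts Notch receptors and E-cadherin, was at 158 (C1), 177 (C2) and 155 CPM (C3). Adam9, a broadly expressed membrane proteinase, was at 152, 168 and 150.2 CPM in the same libraries. Both were highest in C2 and close to each other in every library. Adam10 exceeded Adam9 by 0.06 on the log2 scale in reads, but per length it was lower, by a log2 difference of -0.20 ± 0.01 in 3 of 3 libraries, because the Adam10 transcript model is longer. On the TPM scale Adam9 was at 112.7 ± 7.56 and Adam10 at 98.1 ± 7.54.

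Adam17, the converting enzyme of tumour necrosis factor and a sheddase of EGF receptor ligands, was the steadiest of the abundant members. It was at 120.2 (C1), 124 (C2) and 123 CPM (C3). Its highest library was 1.03 times its lowest, and per length it stood at 50.6 ± 1.01 TPM, below Adam10 by 0.95 ± 0.09 on the log2 scale. A neighbouring gene on the other strand, Iah1, shares 4.35% of the Adam17 exon bases and was at 8.62, 7.67 and 7.69 CPM. The strand setting of the counting is not given in the sources used here, so reads of such overlaps cannot be assigned.

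Adam12 (meltrin alpha) and Adam19 (meltrin beta) are related sheddases, named for their study in muscle cells. Adam12 was at 74.1 (C1), 71.4 (C2) and 88.4 CPM (C3), so C3 stood above the other libraries. Adam19, a sheddase of neuregulin, was at 40.3, 38.1 and 42.8 CPM. Their order per length was the same, at 21.8 ± 2.50 TPM for Adam12 and 16.8 ± 0.938 TPM for Adam19.

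Adam15 and Adam8 were similar to each other in reads. Adam15, a membrane proteinase of epithelial and endothelial cells, was at 59.7 (C1), 49.9 (C2) and 56.3 CPM (C3). Adam8, known from macrophages and other leukocytes and from invasive tumours, was at 50.7, 49.8 and 52.1 CPM. Adam8 was thus nearly equal in the 3 libraries, while Adam15 was lowest in C2. Of 10 leukocyte markers in the table, Lyz2 and Cd68 were detected, and the list summed to 20.1 (C1), 9.83 (C2) and 10.2 CPM (C3). Cd3e had 0 counts, and Ptprc was at 0.0567, 0.119 and 0.273 CPM. In bulk RNA a few cells of another type and less RNA per cell cannot be told apart, and the part of other cells in the Adam8 level was not tested. The leukocyte sum was highest in C1 and Adam8 in C3, and whether they are related was not tested.

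The remaining somatic ADAM proteinases were near absent. Adam33 had 0.0567 (C1), 0.194 (C2) and 0.315 CPM (C3), and Adam28, a proteinase of lymphocytes and epithelia, had 0 counts in all of them. A count of 0 allows up to 3 counts, which is 0.170 (C1), 0.0448 (C2) and 0.0631 CPM (C3). In all, 7 of the 9 genes of this list were detected, against 33.8% of all symbols.

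The ADAMs of the nervous system lack the catalytic site and serve there as receptors; all were below the detection limit here. Adam11 lay just outside it, at 0.908 (C1), 1.07 (C2) and 1.79 CPM (C3), from 16, 72 and 85 counts. Adam22, a receptor for the secreted protein LGI1, was at 0.567, 0.612 and 0.652 CPM, and Adam23 had 0 counts. Of the 4 neuronal and glial markers none was detected, and they summed to 0.227 (C1), 0.209 (C2) and 0.273 CPM (C3). None of the 3 genes held the zinc site in its coding sequence.

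Of 20 ADAM genes of testis and epididymis in the table only Adam3 was detected, and 11 had 0 counts. Adam3 (cyritestin), a sperm surface protein needed in the mouse for sperm to pass into the oviduct, was at 4.93 (C1), 4.39 (C2) and 4.69 CPM (C3), from 87, 294 and 223 counts. The level was alike in the libraries, and it exceeded that of 11.2% of all detected genes. Germ cell markers were not found: all 6 (Prm1, Prm2, Tnp1, Tnp2, Acrv1 and Acr) had 0 counts. Adam3 was also the only detected ADAM without the zinc site. An unnamed transcript model on the other strand, Gm45528, covers 6.76% of its exon bases and was not in the table.

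The neighbours of Adam3 did not share its level. In the RefSeq gene order of the mouse, Adam3 lies among other ADAM genes on chromosome 8, between Adam18 and Adam5, followed by Adam32 and Adam9. Adam18 had 1, 3 and 1 counts in C1, C2 and C3, Adam5 had 0, 7 and 7, and Adam32 had 2, 14 and 9. Per length Adam3 exceeded Adam32 by 26.0-fold, and it was far below Adam9. Of the other genes of this list, Adam1a, which encodes a fertilin subunit, was at 0.624, 0.642 and 0.483 CPM. Its exons overlap those of Mapkapk5 on the same strand over 24.0% of their bases, and Mapkapk5 was at 49.1, 48.4 and 51.4 CPM. A protein-coding model that was not in the table, Gm42878, covers 63.7% of them on the same strand, so the Adam1a value is uncertain. Adam1a and Adam1b also have the same zinc site in 33 of 33 bases. The others with counts (Adam1b, Adam2, Adam4, Adam5, Adam18, Adam21 and Adam32) had means from 0.00701 to 0.184 CPM. With 0 counts were Adam6a, Adam6b, Adam7, Adam24, Adam25, Adam26a, Adam26b, Adam29, Adam30, Adam34 and Adam39.

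Of the ADAMTS proteoglycanases, which cut aggrecan and versican, 4 of 7 were detected and Adamts1 led them. Adamts1 was at 194 (C1), 186 (C2) and 239 CPM (C3). C3 was highest, and its 95% counting interval (234 to 243 CPM) did not overlap those of C1 (187 to 200.2 CPM) and C2 (183 to 189 CPM). Such intervals cover counting error only, not the spread between libraries. At 114.7 ± 15.6 TPM it was the member with the highest mean per length, but it did not differ from Adam9 beyond the spread between libraries (log2 ratio 0.02 ± 0.27, higher in 1 of 3 libraries), nor from Adam10 (0.22 ± 0.28, higher in 2 of 3).

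Adamts8, which cuts aggrecan weakly, was the second proteoglycanase and the least steady of the abundant ADAMTS genes. It was at 13.7 (C1), 12.0 (C2) and 20.6 CPM (C3). C3 was thus 1.72 times C2, while C1 and C2 were close. An antisense transcript model that was not in the table, Gm29724, covers 10.6% of its exon bases.

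The aggrecanases known from cartilage were low. Adamts4 was at 3.91 (C1), 3.06 (C2) and 3.70 CPM (C3). Adamts5 was at 2.78, 2.92 and 1.87 CPM, and it alone of the detected ADAMTS genes was lowest in C3. In the RefSeq order Adamts5 adjoins Adamts1, which exceeded it by 167-fold per length. Adamts9 was below the limit at 0.681, 0.880 and 0.925 CPM, Adamts15 had 2 counts in total, and Adamts20 had none. Adamts15 adjoins Adamts8 in the same order, as Adamts5 adjoins Adamts1, so both pairs hold a gene of low level beside one of higher level.

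Of the 3 procollagen N-proteinases, which trim the amino ends of fibrillar procollagens, only Adamts14 was detected. It was at 19.3 (C1), 19.2 (C2) and 24.2 CPM (C3), again highest in C3. Adamts2, the main enzyme for procollagen I in skin, and Adamts3, which also activates VEGF-C, had 0 counts in all libraries. Set against 3 counts in each library, Adamts14 was 113-fold higher in reads in C1, 428.7-fold in C2 and 384-fold in C3. The zinc sites of the 3 genes printed above all hold the glycine codon GGC, so this feature does not separate them.

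Among the other ADAMTS genes, Adamts10 and Adamts6, both tied to fibrillin microfibrils, were at similar levels in reads. Adamts10 was at 8.62 (C1), 6.24 (C2) and 7.36 CPM (C3), and Adamts6 at 7.20, 6.47 and 7.67 CPM. Both were lowest in C2, and per exon length they did not differ beyond the spread (0.03 ± 0.18 on the log2 scale). Per length of the longest coding transcript, however, Adamts6 was below Adamts10 in every library (log2 ratio -0.73 ± 0.18). Adamts7, which cuts cartilage oligomeric matrix protein (COMP), was at 3.57, 3.67 and 4.56 CPM, while Adamts12, the other proteinase of COMP, averaged 0.207 CPM. Adamts13, which cuts von Willebrand factor in plasma, was below the limit at 0.340, 0.522 and 0.694 CPM. Adamts16 averaged 0.133 CPM, Adamts17 had 1 count, and Adamts18 and Adamts19 had none.

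The ADAMTSL class was low but more evenly filled, with 3 of 5 genes detected. Adamtsl3 was at 7.94 (C1), 9.38 (C2) and 9.90 CPM (C3). Adamtsl5 was at 6.69, 6.61 and 8.05 CPM, and Adamtsl4, whose human gene is mutated in displacement of the eye lens, was at 4.88, 5.34 and 5.44 CPM. All 3 were highest in C3. In reads Adamtsl4 was below Adamtsl3 by a log2 difference of -0.79 ± 0.08. Their order depended on the scale: Adamtsl3 exceeded Adamtsl5 by 0.35 on the log2 scale in reads and was below it by -0.36 ± 0.14 per length. Adamtsl2, whose human gene is mutated in geleophysic dysplasia, had 1 count and Adamtsl1 had none.

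**Figure D2:**
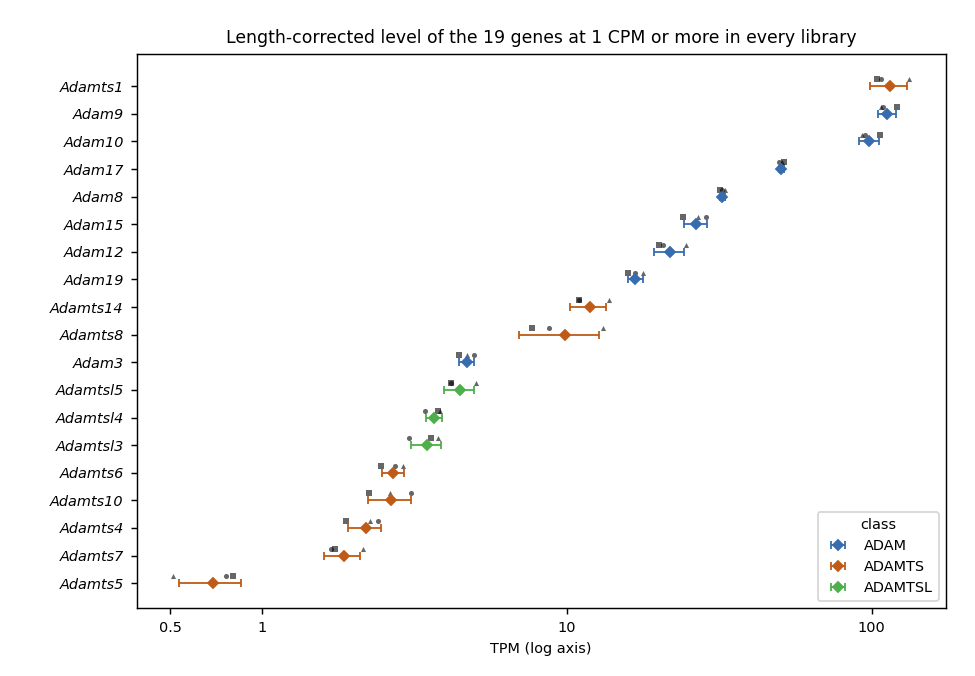
Level per exon length (TPM, log axis) of the 19 detected members in order of their mean; diamonds are means, bars are SD over 3 libraries and the small markers are the libraries C1, C2 and C3. Adamts1, Adam9 and Adam10 lie together near 100 TPM, and Adamts5 is the lowest at 0.691 ± 0.158 TPM.

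Down the order per length, from Adamts1 at the top to Adamts5 at the bottom, most neighbours were separated by more than the SD of their within-library ratio. The exceptions were Adamts1 with Adam9, Adam3 with Adamtsl5 (0.08 ± 0.17) and Adamts6 with Adamts10. Adam8 (32.4 ± 0.626 TPM) and Adam15 (26.6 ± 2.31 TPM) followed Adam17. Adamts14 (11.9 ± 1.61 TPM) and Adamts8 (9.85 ± 2.89 TPM) came below Adam19 and above Adam3 (4.69 ± 0.262 TPM), and per length of the longest coding transcript the order of Adamts14 and Adamts8 turned (log2 ratio -0.04 ± 0.22). With 3 libraries an exact sign-flip test cannot go below p = 0.25, so none was made.

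The 3 libraries differed by more than counting noise for 12 of the 24 members that passed the filter on low counts, in a Poisson dispersion test with Benjamini-Hochberg adjustment over 13026 genes. Of all genes tested 39.3% were called, and of those at 1 CPM or more in every library 42.7%, so the share of the members is near the background. The called members were 6 of 11 ADAM genes (Adam9, Adam10, Adam11, Adam12, Adam15 and Adam19), 5 of 10 ADAMTS genes (Adamts1, Adamts5, Adamts8, Adamts10 and Adamts14) and 1 of 3 ADAMTSL genes, Adamtsl5. The smallest adjusted p was 2.62e-86 for Adamts1, followed by 1.69e-29 for Adamts8 and 2.43e-23 for Adam12. Adam17 (adjusted p = 0.517), Adam8 (0.308) and Adam3 (0.658) were not called. The count was 4 without C2, when 1761 of 12774 genes were called, 4 without C3 (1667 of 12970 genes) and 13 without C1 (4908 of 13337 genes), so the members and all genes lost calls together without C2 or C3.

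Set against genes of similar level with the quasi-likelihood dispersions of edgeR (F test, Benjamini-Hochberg adjustment), 0 of 24 members were called, against 0.0691% of all genes tested. In the same edgeR fit 4 of 24 members had an unadjusted p under 0.05, against 671 of 13026 genes, namely Adamts8 (adjusted p = 0.195), Adamts1 (adjusted p = 0.334), Adam12 (adjusted p = 0.737) and Adamts14 (adjusted p = 0.919). Each of these 4 was highest in C3. Adamts8 was called when C1 was left out (adjusted p = 0.0189), and Adamts1 and Adamts8 were called without the filter on low counts. Neither was called when the edgeR prior was fitted robustly (adjusted p = 0.996 for each). The same held when C3 was left out (adjusted p = 0.986 for Adamts1 and 0.982 for Adamts8). A p that misses the threshold does not show that the libraries were alike.

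By direction, the detected members were highest in C3 more often than in the other libraries. Of 19, 11 were highest in C3, 4 in C2 and 4 in C1, against 34.0%, 35.7% and 30.3% of all detected genes. The ADAMTS genes gave 5 of 8 in C3 and the ADAMTSL genes 3 of 3, whereas the ADAM genes were spread over 2, 3 and 3 in C1, C2 and C3. The highest library exceeded the lowest by a median of 1.13 for ADAM, 1.28 for ADAMTS and 1.22 for ADAMTSL, against 1.10 for all detected genes. The detected ADAMTS and ADAMTSL genes were also of lower level than most, and the part of their low counts in this ratio was not tested.

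**Figure D3:**
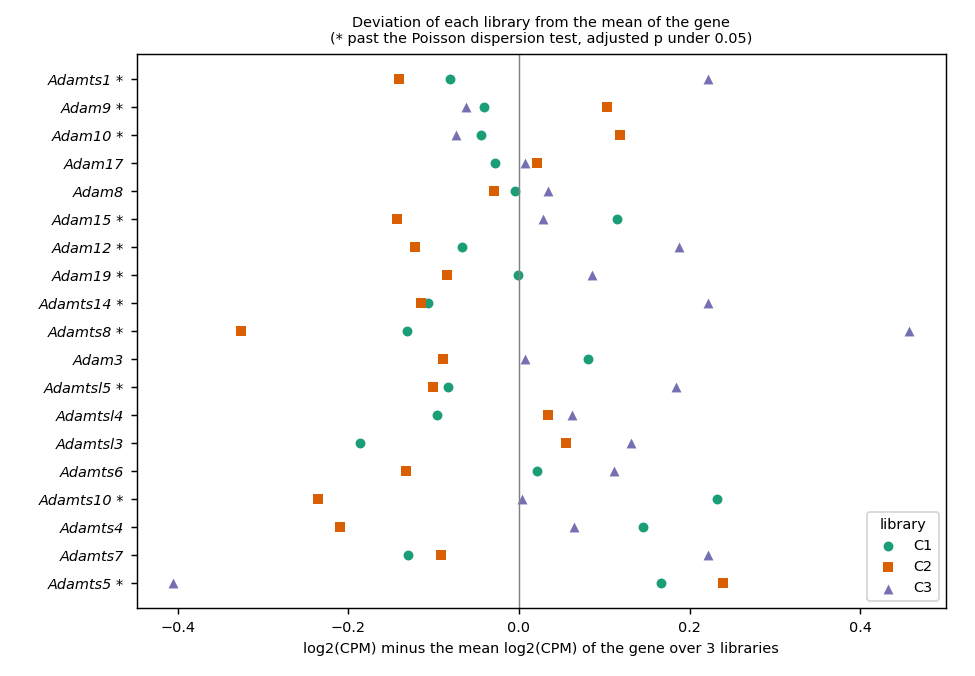
Deviation of each library from the mean of the 3 (log2 CPM) for the 19 detected members, in order of level per length; an asterisk marks an adjusted p under 0.05 in the Poisson dispersion test. Adamts8 is at 0.46 and Adamts5 at -0.41 in C3, and the ADAM genes other than Adam12 stay within 0.15 of their mean.

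The libraries also differed by base composition. Over 11535 detected genes the log2 ratio of C3 to C2 had a Spearman rho of 0.48 with GC content and of -0.07 with exon length. GC content was that of 1 transcript per gene, the one with the longest coding sequence where there was one. Both rho values are given as a description across genes that share the same libraries. After subtracting the median of genes in the same of 5 GC bins, the log2 ratio of C3 to C2 was 0.68 for Adamts8 (0.78 before), 0.37 for Adamts1 (0.36), 0.32 for Adam12 (0.31) and 0.24 for Adamts14 (0.34). It was -0.56 for Adamts5, against -0.64 before. Adam10 and Adam9, both low in GC, moved to -0.11 each, against -0.19 and -0.17 before.

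The inactive rhomboids and FRMD8, which carry and stabilise ADAM17, were all detected. Rhbdf1 was at 76.2 (C1), 65.8 (C2) and 75.8 CPM (C3), Frmd8 at 57.3, 57.7 and 57.8 CPM, and Rhbdf2 at 28.7, 27.8 and 32.2 CPM. Like Adam17, Frmd8 was nearly equal in the 3 libraries. Per length, Adam17 exceeded Rhbdf1 by 1.28-fold (log2 0.36 ± 0.14).

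Of the 6 TspanC8 tetraspanins, which escort ADAM10 to the cell surface, 4 were detected. Tspan14 was at 46.5 (C1), 43.9 (C2) and 50.0 CPM (C3), and Tspan5 at 38.4, 38.6 and 37.1 CPM. Tspan15 (5.38 ± 0.414 CPM) and Tspan17 (5.21 ± 0.843 CPM) were lower, Tspan33 stayed under the limit at 0.681, 0.835 and 0.946 CPM, and Tspan10 had 0 counts. Per length, Adam10 exceeded Tspan14 by 1.88-fold.

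Proprotein convertases remove the inhibitory propeptide of many ADAM and ADAMTS proteins, and 3 of 4 were detected. Furin was at 104 (C1), 98.1 (C2) and 114 CPM (C3), Pcsk7 averaged 23.2 ± 2.47 CPM and Pcsk6 8.26 ± 0.856 CPM, and Pcsk5 had 0 counts. Both enzymes that put the fucose and glucose disaccharide on thrombospondin repeats, Pofut2 (46.4 ± 2.85 CPM) and B3galtl (30.7 ± 2.22 CPM), were detected. Of 5 inhibitors 3 were detected. Timp2 (369.9 ± 4.55 CPM) and Timp1 (63.4 ± 3.02 CPM) were the most abundant, while Reck, a membrane-anchored inhibitor of ADAM10, was low at 3.29, 4.19 and 3.70 CPM. Timp3, the main tissue inhibitor of ADAM17 and of the aggrecanases, had 4, 5 and 8 counts, that is 0.227, 0.0746 and 0.168 CPM. Adam17 was below Timp2, by a log2 difference of -2.47 ± 0.01 per length. That ratio compares messenger RNA levels and does not measure inhibition of ADAM17.

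**Figure D4:**
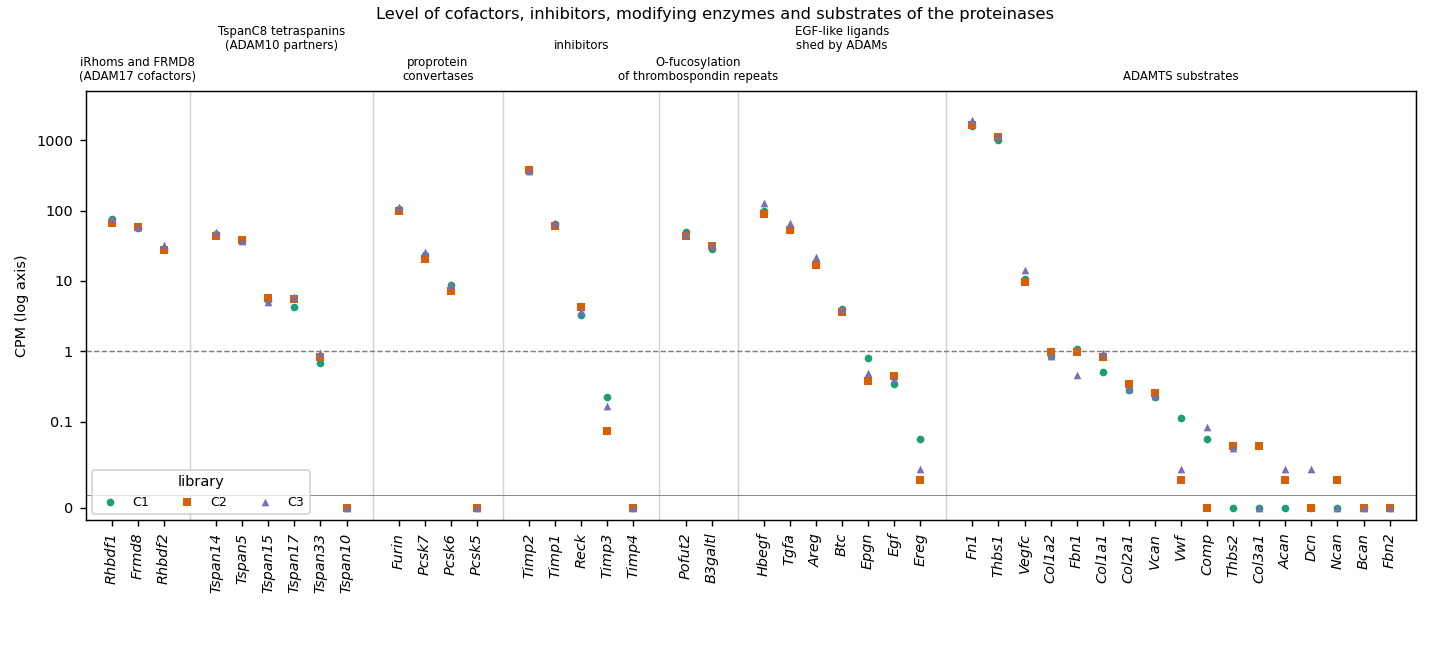
CPM (log axis, with 0 placed at the bottom) of the genes that escort, mature, modify or inhibit ADAM and ADAMTS proteins, of EGF-like ligands and of ADAMTS substrates; points are the 3 libraries and the dashed line is 1 CPM. The inactive rhomboids and Frmd8 lie between 27.8 and 76.2 CPM, and Timp3 lies below 0.25 CPM.

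Most of the listed substrates of ADAM proteins were detected, against 33.8% of all symbols and 62.2% of symbols with a count. The lists were chosen with earlier results of these data known, so their shares are descriptive only. Of 7 EGF-like ligands, 4 were detected: Hbegf was at 99.9 (C1), 89.8 (C2) and 127 CPM (C3), Tgfa at 56.4, 52.8 and 65.9 CPM, Areg at 17.8, 16.6 and 22.1 CPM, and Btc averaged 3.86 ± 0.244 CPM. The first 3 were highest in C3, as Adamts1 was. Egf, Epgn and Ereg were below the limit. Of 21 other shed substrates 20 were detected, led by the receptor kinase Axl (1036 ± 23.2 CPM), E-cadherin (Cdh1, 444 ± 17.1 CPM) and the hyaluronan receptor Cd44 (421 ± 40.0 CPM). Tnf, the substrate that gave Adam17 its older name, was the exception, with 1, 3 and 6 counts.

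Of 17 substrates of ADAMTS proteins 3 were detected, against 33.8% of all symbols, and 2 had 0 counts. Fibronectin (Fn1, 1734 ± 188 CPM) and thrombospondin (Thbs1, 1079 ± 78.6 CPM) were abundant, and Vegfc, a lymphatic growth factor, was at 10.5 (C1), 9.59 (C2) and 14.5 CPM (C3). The other 14 were below 1 CPM in at least 1 library. Vcan, the versican gene, was at 0.227, 0.254 and 0.231 CPM, Acan had 2 counts in total and Bcan none. The libraries thus held Adamts1 near 200 CPM while the versican and aggrecan genes stayed below 0.3 CPM. These values are messenger RNA levels and do not measure the proteins.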

How the data were processed

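RNA was sequenced from 3 samples of 4T1 cells of 1 group. The deposited table gives whole-number counts per gene symbol, not normalized by the authors, per the file headers and the values. The processing named CASAVA 1.7, BWA, STAR, HTSeq and the build mm9, without role or order, per the submitters' processing notes; the library kit keeps strand, per the labels' protocols, but whether the counting used strand is not stated. No column carries the title of a sample, and all 3 columns were therefore taken as unnumbered libraries of the group.

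Counts were divided by library totals (CPM) and, for comparisons between genes, by the exon length of GENCODE M21 (TPM; 31469 of 34591 symbols and all 56 members matched). That annotation is on another build, so no coordinates are given. RefSeq (GRCm38.p6) served for gene order only. Zinc sites are shown as coding DNA of the GENCODE transcripts, in place of the protein stretches planned. Within-library ratios used 0.5 added counts. Intervals are exact 95% Clopper-Pearson intervals; they and the 3-count limit cover counting error only. One count was worth 0.0567 (C1), 0.0149 (C2) or 0.0210 CPM (C3). Spread was tested with edgeR 4.0.16 (R 4.3.3, limma 3.58.1; TMM, filterByExpr, intercept-only quasi-likelihood fit, F test) and a Poisson dispersion chi-square test with 2 degrees of freedom, both with Benjamini-Hochberg adjustment at 0.05, and checked on simulated data. DESeq2 1.42.0 gave size factors for an alternative. Members and the 24 gene lists were chosen with earlier results of these data known. Named with values are the members at 1 CPM or more in every library, at 1 CPM in some libraries only, or with a mean from 0.25 to 1 CPM; the other members, partners and substrates are given by counts, ranges and examples, and a few genes are not reported here.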

Additional observations from a re-analysis of the deposited data

How the results depend on the processing

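No paired analysis was possible because all libraries belong to 1 group. Detection counts, summed levels and ratios kept their direction under other scalings, detection limits, added counts and left-out libraries, except as follows. The ratio of Adam10 to Adam9 reversed to -0.20 per exon length and -0.13 per length of the longest coding transcript (chosen after seeing the data), and that of Adamtsl3 to Adamtsl5 to -0.36 and -1.54. Adamts1 over Adamts14 moved to 3.27 and 3.39, and ADAMTSL over ADAMTS to -3.16 per coding transcript. Coding length also turned the order of 4 neighbouring pairs (Adam8 and Adam15, Adamts14 and Adamts8, Adam3 and Adamtsl5, Adamts6 and Adamts10) and set Adamts10 above Adam3, Adamtsl4 and Adamtsl3. The F test called 0 members with the filter on low counts and 2 without it (Adamts1, adjusted p = 0.00474; Adamts8, 1.7e-05), with 171 genes called over the whole table, against 9 with the filter. Without the filter the prior of the edgeR fit had infinite degrees of freedom, against 9.16 with it, so the test itself also changed. A robust fit of the prior called 0 members. Leaving out a library gave 0 to 1 (Adamts8 without C1, adjusted p = 0.0189). The Poisson test called 12 members, and 4 to 13 with a library left out: 13 without C1, 4 without C2 and 4 without C3, against 4908 of 13337, 1761 of 12774 and 1667 of 12970 genes over the whole table. Other scalings called 12. C1 was the shallowest library and limits members below 0.170 CPM.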

Other observations

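Relatives that carry other names were read from the same table. Thsd4, an ADAMTS-like gene whose protein binds fibrillin, was at 22.2, 22.3 and 25.6 CPM in C1, C2 and C3, above each of the 3 detected ADAMTSL genes in reads and at 4.93 ± 0.392 TPM per length. Papln, which encodes the ADAMTS-like protein papilin, was at 0.227, 0.507 and 0.862 CPM, and the ADAM relative Adamdec1 had 0 counts. Of the Notch pathway substrates of Adam10, Notch2 averaged 100.1 ± 3.91 CPM, Notch1 52.0 ± 1.63 CPM and the ligand Jag1 42.6 ± 10.6 CPM, with Jag1 highest in C3 (54.5 CPM, against 39.4 CPM in C1 and 34.0 CPM in C2).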
